A study of Mus musculus with 6 samples.

Results

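The integrin and laminin chains of mouse thyroid tumor cells were chosen from the deposited table by gene symbol alone. All integrin alpha and beta chains were taken, apart from 5 alpha chains of leukocytes (Itgal, Itgam, Itgax, Itgad and Itgae), together with all laminin alpha, beta and gamma chains. This gave 32 of the 35027 genes in the table, with 13 integrin alpha chains, 8 integrin beta chains and 11 laminin chains. RNA-seq had been performed on Kate-positive cells sorted from thyroid tumors of 2 genotypes, with 3 libraries in each. Both genotypes carried a Cre that recombines in thyroid follicular cells, an rtTA-IRES-Kate allele (RIK) that Cre switches on, and a tetO-YAPS127A transgene, so that doxycycline (dox) chow given from 4 weeks of age induced a constitutively nuclear YAP and sorted cells carried the red fluorescent Kate reporter. YAP tumors (replicates 1, 2 and 3) had these alleles only, and BrafYAP tumors (replicates 1, 2 and 6) also expressed BrafV600E from the endogenous locus. The mice were on a mixed background. A YAP library pools 3 tumors in the labels, while 1 tumor made up a library of BrafYAP, so pooling and genotype cannot be told apart. The comparison asks how these chains differ when mutant Braf is present together with nuclear YAP.

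Integrins are receptors built of 1 alpha and 1 beta chain that anchor cells to the extracellular matrix and signal through adaptors on the cytoplasmic side. Laminins are trimers of 1 alpha, 1 beta and 1 gamma chain and form the sheet of the basement membrane under epithelia, including the layer around thyroid follicles. Lama3 and Lamb3 encode chains of laminins that anchor epithelia, and laminin-511 (Lama5, Lamb1 and Lamc1) is the common laminin of mature epithelial basement membranes. The main laminin receptors of epithelial cells pair the Itga3 or Itga6 chain with Itgb1, or Itga6 with Itgb4 in hemidesmosomes.

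Promoter sequences are shown for the beta chain with the lowest p-value (Itgb6) and for Itgb1, the main beta chain of matrix receptors, because the 2 chains lay in opposite directions between the genotypes. The sequences are the 250 bases before a RefSeq transcription start on GRCm38.p6, and 21 of the 32 members were matched to such windows (24 windows). Capitals mark the letters GGAATG, the core that TEAD factors, the DNA-binding partners of YAP, recognize.
Itgb6, chr2:60722604-60722853, minus strand: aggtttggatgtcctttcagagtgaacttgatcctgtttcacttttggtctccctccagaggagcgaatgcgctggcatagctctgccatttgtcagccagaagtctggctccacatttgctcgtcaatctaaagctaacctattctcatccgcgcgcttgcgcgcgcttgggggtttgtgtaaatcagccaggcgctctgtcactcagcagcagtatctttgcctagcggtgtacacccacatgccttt
Itgb1, chr8:128685404-128685653, plus strand: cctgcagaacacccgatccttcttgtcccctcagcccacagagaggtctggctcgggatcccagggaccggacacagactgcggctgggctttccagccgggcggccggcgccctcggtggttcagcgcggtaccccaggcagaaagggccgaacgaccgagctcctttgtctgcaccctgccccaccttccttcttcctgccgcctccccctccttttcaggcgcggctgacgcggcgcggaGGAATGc
Read on both strands, GGAATG was present in the windows of Itga10, Itgb1 and Lamb3, 3 of 24 member windows, against 12.6% of 32851 windows of all genes. The AP-1 letters TGANTCA were in 0 of 24 member windows and 6.75% of all windows, and the ETS letters CCGGAAG were in 1 member window (Itga3) and 6.91% of all windows. These matches describe the letters of these windows only. Itgb6 has a second RefSeq start inside the gene, and its window held none of the 3 motifs either. By the GENCODE annotation of GRCm38, Itgb6 lies at chr2:60598292-60722643 on the minus strand and Itgb1 at chr8:128685654-128733200 on the plus strand. Lamc1 lies at chr1:153218922-153332786 on the minus strand. No annotated gene overlaps Itgb6 or Itgb1, whereas Lamc1 overlaps an unconfirmed transcript (Gm38009) and a pseudogene (Gm8818).

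Estimated depth was 26.2 to 36.9 M reads per library. Levels are given on 2 scales. Scaled reads are the deposited values with the division by gene length undone, and are used to compare 1 gene between libraries, while exonic TPM are recomputed per exonic length and are used to compare genes. BrafYAP replicate 6 stood apart, with correlations across genes of 0.738 to 0.844 with the other libraries, against 0.967 between BrafYAP replicates 1 and 2, and values without it are given beside the results. The thyroid label was checked on its markers. Pax8, a thyroid lineage factor, had 5189 to 14665 scaled reads in the 6 libraries, but Tg, the thyroid hormone precursor, had 129 and 51.8 in BrafYAP replicates 1 and 2, 19643 in replicate 6 and 1279 to 16679 in YAP. Reads of leukocyte markers were also present in the sorted cells, at a summed level (8 genes, mostly Lyz2) of 188812 to 648980 scaled reads in YAP and 54854 to 201420 in BrafYAP. In such bulk samples, fewer cells of a type and less RNA per cell cannot be told apart.

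The chains spanned more than 4 orders of magnitude. By mean exonic TPM over the 6 libraries, abundant chains were Itgb2 (536), Itgb1 (531), Lamb3 (263) and Itga3 (146), followed by Itgb5 (89.9), Lamb2 (82.4), Itga5 (65.5), Itgb6 (58.0), Itgb4 (53.8) and Itga7 (49.9). Lama5 (39.8), Lamb1 (38.9), Lamc1 (22.1), Itgav (18.5), Itga6 (16.4), Itga11 (15.0), Itgb3 (11.8), Lama3 (9.34) and Itgb7 (7.71) were intermediate. Lama3 was far below Lamb3 in every library. Itga2 (4.79), Itga2b (4.54), Itgb8 (1.75), Itga4 (1.48), Lama4 (1.08) and Itga1 (0.80) were low, and Lamc3, Itga8, Itga10, Itga9, Lama2 and Lama1 were at 0.2 or less. Neighbours in this order were rarely separable, since only Itga1 above Lamc3, 1 of 31 neighbouring pairs, kept its order in all 6 libraries. Lama1, the alpha chain of embryonic laminin, was above the offset in 2 libraries only (YAP replicate 1 and BrafYAP replicate 1), which left 31 members present in at least 3 libraries. Lama2, the muscle and nerve laminin alpha chain, had a mean under 10 scaled reads, and 30 members entered the test.

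**Figure D1:**
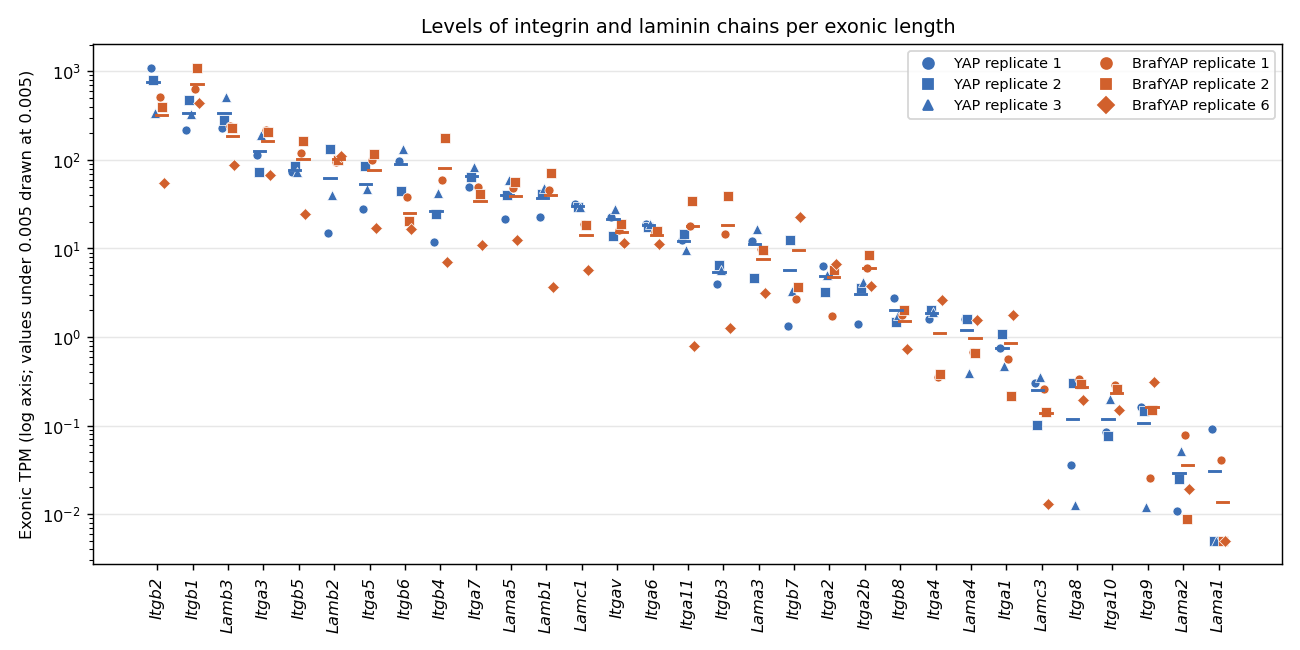
Exonic TPM (log axis) of 31 of the 32 chains in each of the 6 libraries, ordered by mean level, with YAP in blue, BrafYAP in orange, a marker shape per replicate and a dash at each group mean. Itgb2, Itgb1 and Lamb3 lead the order shown, and BrafYAP replicate 6 (orange diamonds) is the lowest point for many chains.

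No chain passed the adjusted threshold. The test was limma on log2(scaled reads + 1) over 16782 genes, with Benjamini-Hochberg adjustment, and it called 0% of all genes (0 of 16782, with 3406 at an unadjusted p under 0.05). At an unadjusted p under 0.05 there were 2 of 30 chains, Itgb6 and Lamc1, against 20.3% of all genes. Both were lower in BrafYAP, where 10.6% of all genes were called in that direction. Groups without overlap were seen for 4 of 30 chains (Itga6, Itga7, Itgb6 and Lamc1), against 28.8% of all genes, and all 4 were lower in BrafYAP (17.1% of all genes). Neither share of the chains was above that of all genes. The log2 differences were positive for 12 chains and negative for 18. Their median was -0.25, beside -0.12 for all genes. It was -0.02 over the 21 integrin chains (10 positive, 11 negative) and -0.60 over the 9 laminin chains tested (2 positive, 7 negative). With median-ratio size factors, the median of all genes moved to 0.01 and that of the chains to -0.13. The order was not the same in every setting. The median of the chains was above that of all genes without BrafYAP replicate 6 (-0.0719 against -0.0915), without YAP replicate 2 (-0.11 against -0.15), with array weights (0.0704 against -0.12), on the deposited values with 1 added (0.10 against -0.0645) and with the replicate block (0.15 against -0.0626). The setting with 1 added tested only 13 chains, so its median is that of a smaller set. Differences under the replicate block rest on replicates 1 and 2 of each genotype, so that setting also leaves BrafYAP replicate 6 out.

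**Figure D2:**
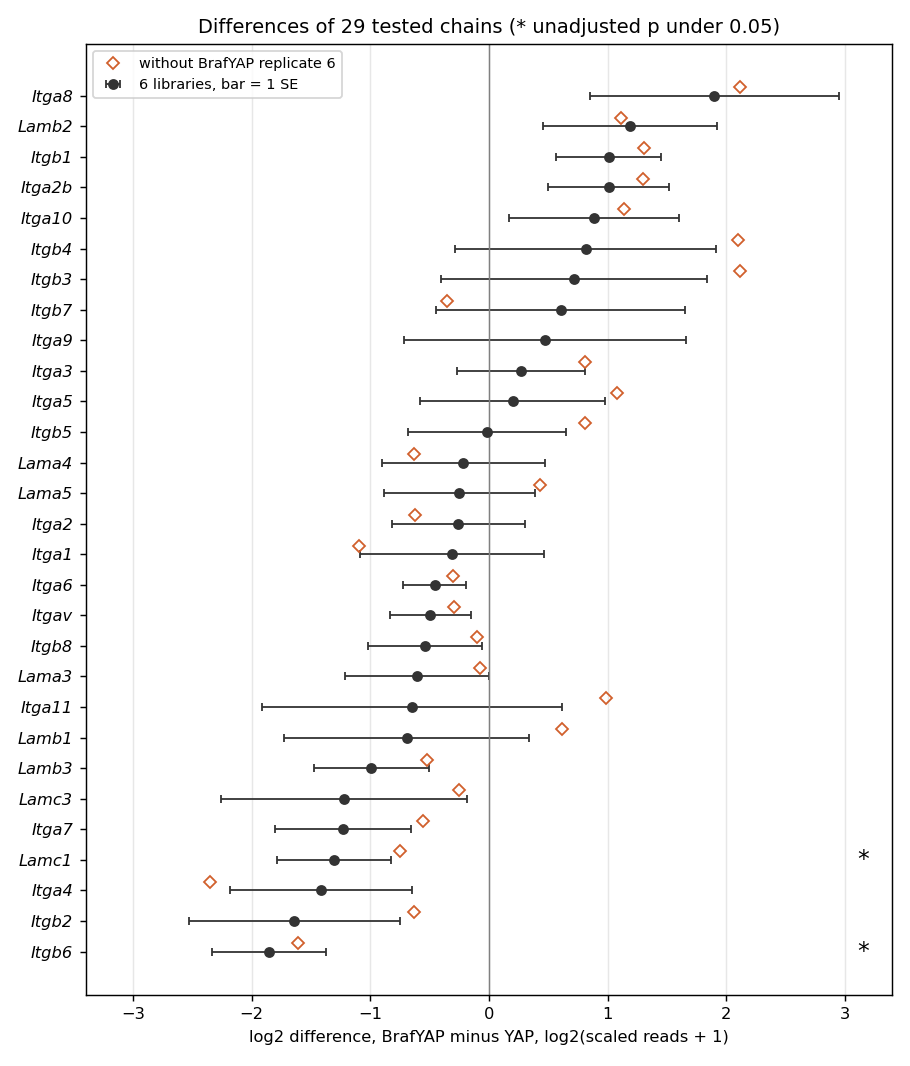
Log2 difference in scaled reads (BrafYAP minus YAP) of 29 of the 30 tested chains over 6 libraries (black points, bar of 1 SE) and without BrafYAP replicate 6 (open orange diamonds, no error drawn); stars mark an unadjusted p under 0.05 over 6 libraries. Itgb6 (-1.85) and Lamc1 (-1.30) carry stars, and Itgb3, Itgb4, Itga11 and Lamb1 move furthest to the right without replicate 6.

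Of the laminin chains, Lamc1 had the lowest p-value. Lamc1, which encodes the gamma1 chain of most laminins, had 3023, 2905 and 2647 scaled reads in YAP replicates 1, 2 and 3, and 1750, 1653 and 532 in BrafYAP replicates 1, 2 and 6. All BrafYAP libraries were below all YAP libraries. The log2 difference was -1.30 ± 0.48 (SE, limma unadjusted p = 0.0287, adjusted p = 0.197), a 2.47-fold lower level. Without replicate 6 it was -0.75 (adjusted p = 0.181), and leaving out any 1 YAP library took its unadjusted p to 0.060 to 0.065. Lamc3 was low, at 0.9 to 23.7 scaled reads.

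The chains of epithelial anchoring laminins had negative differences with overlapping groups. Lamb3, encoding beta3, had 17699, 22506 and 37394 scaled reads in YAP and 17738, 16501 and 6480 in BrafYAP. BrafYAP replicate 1 lay within the YAP range by a narrow margin and the others below it (log2 difference -0.99 ± 0.48 SE, limma unadjusted p = 0.0787, adjusted p = 0.298, and -0.52 without replicate 6). The Lamb3 locus contains the protein-coding genes G0s2 and Hsd11b1 on the opposite strand, and the strand of the counting is not given in the sources used here. Lama3, encoding alpha3, had 1538, 593 and 1963 scaled reads in YAP and 1181, 1130 and 382 in BrafYAP. The groups overlapped, with the highest and the second-lowest values both in YAP (log2 difference -0.60 ± 0.61 SE, limma adjusted p = 0.598). Without replicate 6 the Lama3 difference was -0.0719, close to 0.

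Of the laminin-511 chains, only Lamc1 had groups apart. Lama5, the alpha5 chain, had 2879, 5548 and 7413 scaled reads in YAP and 6186, 7105 and 1594 in BrafYAP, with a log2 difference of -0.25 ± 0.64 (SE, limma adjusted p = 0.845). Lamb1, the beta1 chain, had 2644, 4967 and 5250 scaled reads in YAP and 5075, 7751 and 412 in BrafYAP, with a log2 difference of -0.70 ± 1.04 (SE, limma adjusted p = 0.729). For both, BrafYAP replicates 1 and 2 were within or above the YAP range and replicate 6 was the lowest library. Without replicate 6 their differences were 0.43 and 0.61, with the opposite sign. Lamb2, the beta2 chain of vascular and neuromuscular basement membranes, ranged from 1050 to 9773 scaled reads in YAP and from 6436 to 7648 in BrafYAP. Its groups overlapped because of YAP replicate 2 (log2 difference 1.19 ± 0.73 SE, limma adjusted p = 0.391, and 1.12 without BrafYAP replicate 6). Lama4, an endothelial laminin chain, ranged from 51.5 to 231 scaled reads over the 6 libraries, with both extremes in YAP.

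**Figure D3:**
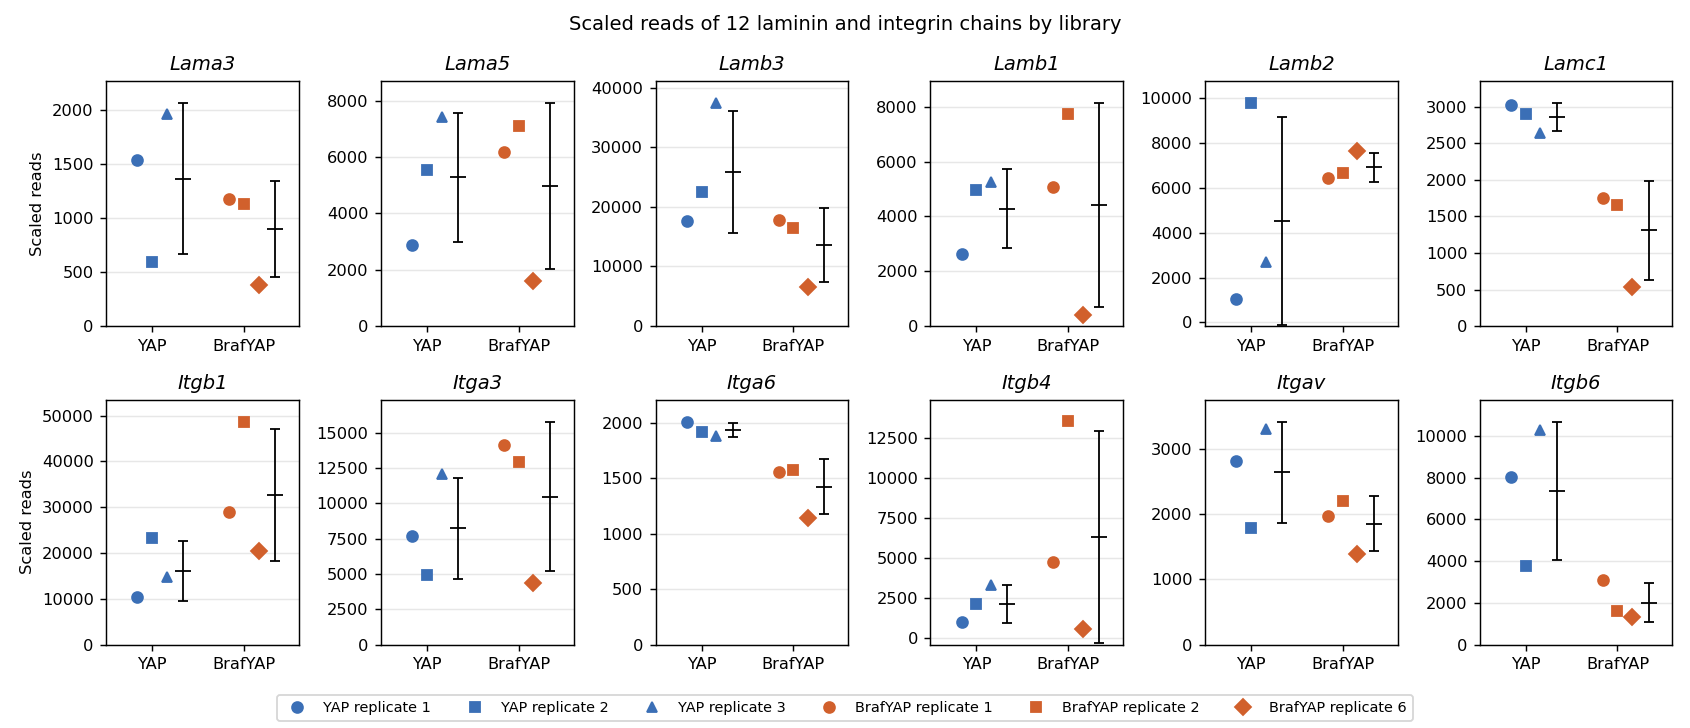
Scaled reads of 6 laminin and 6 integrin chains in each library, with YAP in blue, BrafYAP in orange, a marker shape per replicate, and the group mean with a bar of 1 SD in black; each panel has its own axis. For Lamc1, Itga6 and Itgb6 the BrafYAP points all lie below the YAP points, while for Lama5, Lamb1, Itga3 and Itgb4 BrafYAP replicate 6 lies below the rest.

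The lowest p-value among the chains was that of Itgb6. It encodes beta6, an epithelial chain that pairs only with alphav and forms a receptor that activates latent TGF-beta. Itgb6 had 8016, 3765 and 10309 scaled reads in YAP and 3074, 1601 and 1340 in BrafYAP. Every BrafYAP library was below every YAP library, with the narrowest gap between YAP replicate 2 and BrafYAP replicate 1. The log2 difference was -1.85 ± 0.48 (SE, limma unadjusted p = 0.00594, adjusted p = 0.115), a 3.61-fold lower level, and -1.61 without replicate 6 (unadjusted p = 0.0174, adjusted p = 0.158). Its level per exonic length was 90.8 ± 44.1 exonic TPM in YAP and 25.3 ± 11.7 in BrafYAP (mean ± SD, 3 libraries each). Its partner Itgav had 2820, 1792 and 3308 scaled reads in YAP and 1963, 2203 and 1381 in BrafYAP, and the groups overlapped (log2 difference -0.49 ± 0.34 SE, limma adjusted p = 0.441, and -0.30 without replicate 6). The other beta chains that pair with alphav were not in the direction of Itgb6 in every case. Itgb5 had a log2 difference of -0.02 ± 0.67 (SE), which was 0.81 without replicate 6, and Itgb8 one of -0.54 ± 0.48 (SE), which was -0.10 without it. Itgb3 ranged from 270 to 466 scaled reads in YAP and had 976, 2504 and 84.4 in BrafYAP. BrafYAP replicates 1 and 2 thus lay above and replicate 6 below all YAP libraries. Its log2 difference was 0.72 ± 1.12 (SE, limma adjusted p = 0.744), and 2.11 without replicate 6.

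The main beta chain of matrix receptors, Itgb1, was higher in most BrafYAP libraries. It had 10324, 23245 and 14707 scaled reads in YAP and 28978, 48657 and 20459 in BrafYAP. Only BrafYAP replicate 6 was below a YAP library (replicate 2). The log2 difference was 1.01 ± 0.44 (SE, limma unadjusted p = 0.0550, adjusted p = 0.255), and 1.30 without replicate 6 (unadjusted p = 0.0199, adjusted p = 0.165).

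Of its laminin-binding alpha partners, Itga6 and Itga7 were not higher together with it, while Itga3 was highest in BrafYAP replicates 1 and 2. Itga6 had 2008, 1916 and 1883 scaled reads in YAP and 1557, 1575 and 1141 in BrafYAP. The YAP libraries were close together and all above BrafYAP, but the size was small (log2 difference -0.46 ± 0.26 SE, limma unadjusted p = 0.125, adjusted p = 0.366, and -0.31 without replicate 6). Itga7, a laminin receptor chain best known from muscle, had 4703, 6211 and 7430 scaled reads in YAP and 4548, 3679 and 1003 in BrafYAP. Its groups were apart by a narrow margin (log2 difference -1.23 ± 0.58 SE, limma unadjusted p = 0.0683, adjusted p = 0.279), with -0.55 without replicate 6. Skeletal muscle markers had low levels beside it, since the 5 genes of that list summed to 90.5 to 348 scaled reads in YAP and 18.7 to 72.7 in BrafYAP, 3 of them (Ckm, Myh4 and Tnnt3) with a mean under 10, and their part in the Itga7 difference was not tested. Itga3, the alpha chain with the highest level per exonic length, had 7654, 4954 and 12087 scaled reads in YAP and 14122, 12915 and 4394 in BrafYAP. BrafYAP replicates 1 and 2 were the highest and replicate 6 the lowest of the 6 libraries (log2 difference 0.27 ± 0.54 SE, limma adjusted p = 0.801, and 0.81 without replicate 6).

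Itgb4, the hemidesmosome chain that pairs only with Itga6, had the same arrangement. It had 956, 2088 and 3293 scaled reads in YAP and 4719, 13575 and 558 in BrafYAP. The log2 difference was 0.81 ± 1.10 (SE, limma adjusted p = 0.700), and 2.09 without replicate 6 (unadjusted p = 0.0151, adjusted p = 0.150). Of 5 hemidesmosome partners, Col17a1 had a mean under 10 scaled reads, and the 4 tested (Plec, Dst, Cd151 and Cd9) had log2 differences of -0.10, -0.57, -0.29 and -0.28, with 0 at an unadjusted p under 0.05. Without replicate 6 they were 0.51, 0.13, -0.26 and -0.0857.

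The remaining alpha chains were read by the ligand they bind. Among RGD-binding chains, Itga5, the fibronectin receptor chain, had 1613, 5100 and 2586 scaled reads in YAP and 5470, 6256 and 943 in BrafYAP. BrafYAP replicate 6 was again the lowest library, and the log2 difference of 0.20 ± 0.78 (SE, limma adjusted p = 0.904) became 1.08 without it. Itga2b, the platelet chain, had 89.4 to 250 scaled reads in YAP and 233 to 502 in BrafYAP, a log2 difference of 1.01 ± 0.51 (SE, limma unadjusted p = 0.0879), and 1.30 without replicate 6. Of 4 platelet markers, Gp9 was at 0 in every library and Gp1bb at most 1.3, while Pf4 had 116 to 1886 and Ppbp 16.9 to 1095 scaled reads. The 4 genes summed to 837 to 1843 scaled reads in YAP, 2981 and 2305 in BrafYAP replicates 1 and 2 and 133 in replicate 6, and their part in the Itga2b difference was not tested. Among collagen-binding chains, Itga2, an epithelial chain, had 524, 278 and 397 scaled reads in YAP and 140, 449 and 537 in BrafYAP, with the groups overlapping (log2 difference -0.26 ± 0.56 SE, limma adjusted p = 0.817, and -0.62 without replicate 6). Itga11, a chain typical of fibroblasts, had 545 to 890 scaled reads in YAP, 1028 and 1952 in BrafYAP replicates 1 and 2 and 46.2 in replicate 6. Its log2 difference was -0.65 ± 1.27 (SE, limma adjusted p = 0.796) over all libraries, and 0.99, of the opposite sign, without replicate 6. Itga1 ranged from 43.9 to 369 scaled reads over the 6 libraries and shares its locus with the protein-coding gene Pelo. Itga8, Itga9 and Itga10 did not exceed 27.7 scaled reads in any library.

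To set the chains against each other without the scaling between libraries, 5 ratios of exonic TPM were taken within each library. They were chosen after the values had been seen. The Itgb6/Itgb1 ratio was 0.446, 0.0929 and 0.402 in YAP and 0.0609, 0.0189 and 0.0376 in BrafYAP. The BrafYAP libraries, replicate 6 included, were all lower, and the log2 difference was -2.86, and -2.91 without replicate 6. The exact two-sided permutation p was 0.1, the smallest that 3 libraries against 3 can give, with an adjusted p of 0.5 over the 5 ratios. The other ratios overlapped between the genotypes. The log2 differences were 0.73 for Itga3/Itga6 (exact permutation p = 0.2), -0.29 for Lamb3/Lamb1 (exact permutation p = 0.9), -0.35 for Lama3/Lama5 (exact permutation p = 0.7) and -0.20 for Itgb4/Itgb1 (exact permutation p = 0.9). Without replicate 6 they were 1.11 for Itga3/Itga6, -1.14 for Lamb3/Lamb1 and -0.50 for Lama3/Lama5, and that of Itgb4/Itgb1 turned to 0.79.

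**Figure D4:**
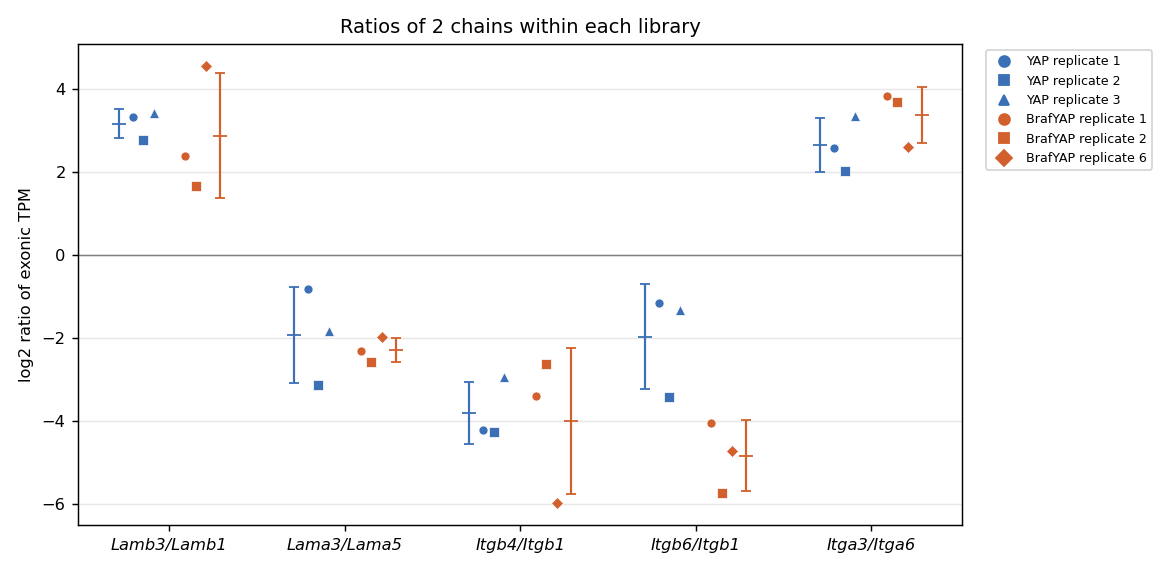
Log2 ratio of exonic TPM of 2 chains within each library, for 5 chosen ratios, with YAP in blue, BrafYAP in orange, a marker shape per replicate and the group mean with a bar of 1 SD beside the points. The groups are apart for Itgb6/Itgb1, lower in BrafYAP, and overlap for the other 4 ratios.

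The chain with the highest mean level, Itgb2, is the common beta chain of leukocyte integrins and pairs with 4 of the 5 alpha chains left out above (Itgae pairs with Itgb7). Itgb2 had 39165, 29594 and 11423 scaled reads in YAP and 17671, 13204 and 1874 in BrafYAP. The groups overlapped, and the log2 difference was -1.64 ± 0.89 (SE, limma unadjusted p = 0.105, adjusted p = 0.339), with -0.63 without replicate 6. Itgal and Itgax, the alpha chains of its lymphocyte and dendritic or macrophage receptors, had groups apart. Itgax had 10599, 9012 and 3949 scaled reads in YAP and 3564, 2821 and 1086 in BrafYAP (log2 difference -1.70, limma unadjusted p = 0.0180, adjusted p = 0.165). Itgal had 5827, 4102 and 1706 in YAP and 1030, 975 and 264 in BrafYAP (log2 difference -2.42, limma unadjusted p = 0.00758, adjusted p = 0.124). The 5 excluded chains had a median log2 difference of -1.70, with 2 of 5 at an unadjusted p under 0.05, both lower, against 10.6% of all genes lower. Without replicate 6, Itgax had a difference of -1.19 and Itgal one of -1.78, and Itgae was called as well. Leukocyte markers lay lower in BrafYAP beside them, with 5 of the 7 tested at an unadjusted p under 0.05 (Ptprc, Lyz2, Cd68, Csf1r and Coro1a), against the same 10.6%, and a median of -1.77, which was -1.17 without replicate 6, where Lyz2 was not called and Cd3e was. Their part in the Itgb2 difference was not tested. Cd3e, of T cells, had 0.8 to 43.2 scaled reads. S100a8 was the 1 tested marker with a positive difference (1.15, limma unadjusted p = 0.130). It had 25.7, 8.6 and 25.8 scaled reads in YAP and 23.3, 44.0 and 67.5 in BrafYAP.

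Itga4 and Itgb7, which form receptors for VCAM-1 and MAdCAM-1 on leukocytes, differed between the BrafYAP libraries themselves. Itga4 had 259, 339 and 299 scaled reads in YAP, 55.7 and 58.9 in BrafYAP replicates 1 and 2, and 410 in replicate 6. Its log2 difference of -1.42 ± 0.76 (SE, limma unadjusted p = 0.104) became -2.36 without replicate 6, with a limma adjusted p of 0.0427. It was the only chain past the threshold in that setting, where 140 of 16575 genes passed. The library left out there was the one with the highest Itga4. Itgb7 ranged from 43.2 to 420 scaled reads in YAP and had 83.1, 111 and 707 in BrafYAP.

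**Figure D5:**
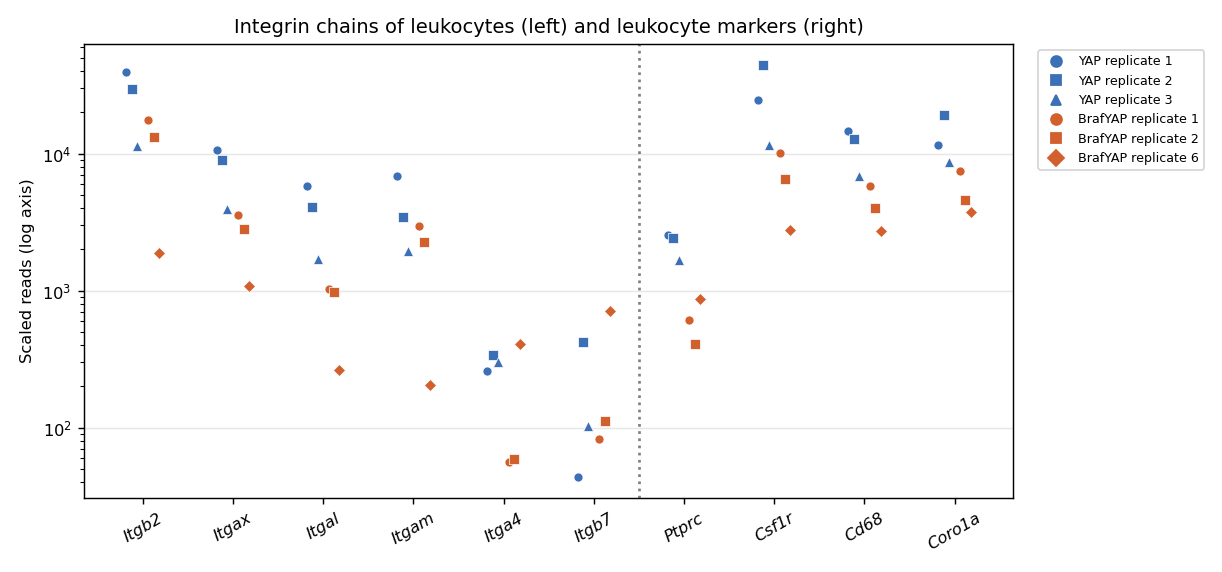
Scaled reads (log axis) of 6 integrin chains used by leukocytes (left of the dotted line) and 4 leukocyte markers (right) in each library, with YAP in blue, BrafYAP in orange and a marker shape per replicate. Itgax, Itgal and the 4 markers lie lower in BrafYAP without overlap, whereas Itga4 and Itgb7 are highest in BrafYAP replicate 6. The 4 markers drawn are those of the list of 8 that had groups apart.

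Other genes of the adhesion pathway were counted from lists chosen by function, and 0 genes of any list passed the adjusted threshold. Of 36 cytoplasmic adaptors, 3 were higher and 6 lower at an unadjusted p under 0.05, or 25% against 20.3% of all genes, with a median log2 difference of -0.29 beside -0.12. Without BrafYAP replicate 6 the counts were 3 higher and 3 lower of 36, against 21% of all genes. That share was no longer above the one of all genes, and the median was -0.0150 beside -0.0915. The higher ones were Zyx, a focal adhesion protein (1.63, limma unadjusted p = 0.0259), Crk, an adaptor downstream of p130Cas (1.21, unadjusted p = 0.00350), and Ptk2b, a kinase related to focal adhesion kinase (0.75, unadjusted p = 0.0485). The lower ones were Tln2, Fermt3, Ilk, Parvb, Lims2 and Tns4. Without replicate 6 Ptk2b, Tln2, Fermt3 and Tns4 were not called, and Fermt1 was called as higher (0.96, limma unadjusted p = 0.0455). Ilk, Parvb and Lims2 belong to families that assemble into one complex on the tails of beta integrins, and had log2 differences of -0.90, -1.87 and -2.73 (-0.61, -1.73 and -2.70 without replicate 6). Their close relatives Parva and Lims1 had 0.0258 and -0.0589, while Parvg had -1.56 with overlapping groups (limma unadjusted p = 0.0553). Parvb (24.9 to 171 scaled reads) and Lims2 (18.8 to 353) were low beside Parva (5555 to 14306) and Lims1 (2173 to 3598).

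Of 21 other basement membrane genes and laminin partners, 1 was higher and 7 lower at an unadjusted p under 0.05 (38.1% in all, against 20.3% of all genes, and 10.6% of all genes lower). The median was -0.58, beside -0.12 for all genes. Without BrafYAP replicate 6 the counts were 3 and 7 of 21, against 21% of all genes, and the median turned to 0.13, beside -0.0915. Of the lower ones, 4 are type IV collagen chains, the other network of the basement membrane, namely Col4a3 (-3.22, limma unadjusted p = 0.0318), Col4a4 (-3.09, unadjusted p = 0.0250), Col4a5 (-2.38, unadjusted p = 0.00165) and Col4a6 (-1.81, unadjusted p = 0.000515). Col4a6 had 3434, 2556 and 3330 scaled reads in YAP and 1118, 919 and 660 in BrafYAP, with an adjusted p of 0.0747. BrafYAP replicate 6 had 160 scaled reads of Col4a3 and 86.1 of Col4a4, against 4393 and 4380 of Col4a3 and 1792 and 1502 of Col4a4 in replicates 1 and 2. Without it the differences were -1.63 for Col4a3, -1.68 for Col4a4, -1.84 for Col4a5 and -1.60 for Col4a6, with limma adjusted p of 0.0666, 0.0829, 0.0512 and 0.0615. Each of these 4 chains had groups apart, while Col4a1 (-0.75, and -0.37 without replicate 6) and Col4a2 (-0.15, and 0.13 without it), the ubiquitous pair, overlapped. The other lower genes were Nid2 (-2.41), a linker of laminin and collagen IV, Sparc (-1.57, and -0.86 without replicate 6), a collagen-binding matrix protein, and Ntn1 (-2.57), a laminin-related guidance protein. Col18a1, the precursor of endostatin, was higher (1.08, limma unadjusted p = 0.0230). Among 18 other integrin ligands, 15 were tested, with a median of -0.0855 and 2 at an unadjusted p under 0.05 (13.3%, against 20.3% of all genes). Vcam1, the ligand of integrin alpha4beta1, was lower (-1.99, limma unadjusted p = 0.00933) and Edil3, an RGD protein bound by alphav integrins, was higher (1.31, unadjusted p = 0.0261). Without replicate 6 these differences were -1.46 and 0.92, and Edil3 was not called.

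BrafYAP replicate 6 was the lowest of the 6 libraries for 18 of the 30 chains (60%), against 31.1% of all genes, and BrafYAP replicate 2 was the highest for 9 (30%), against 12.9%. Without replicate 6, 10 of the 29 chains then tested had an unadjusted p under 0.05, against 21% of all genes. Among those higher in BrafYAP were Itga11, Itga2b, Itgb1, Itgb3, Itgb4 and Itgb5, and lower were Itga4, Itgb6 and Lamc1. Itgb6, Lamc1 and their directions were thus called with and without this library, while these higher chains were not called with all 6 libraries. Replicate 6 also had the highest Tg, Epcam (7014 scaled reads, against 380.4 to 1837 in the other libraries) and Pecam1 (618, against 18.1 to 132) of the 6 libraries. Other markers of the same lists went the other way. Pax8 (5189) and Krt19 (25930) were lowest in replicate 6, and Kdr was highest in YAP replicate 2 (3148). The thyroid markers summed to 33964 scaled reads in replicate 6, the highest of the 6 libraries. The epithelial markers summed to 170074, against 138609 to 399901 in YAP and 382397 and 232252 in BrafYAP replicates 1 and 2. The part of these markers in the differences was not tested.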

How the data were processed

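About 20000 sorted cells were collected for each library, with 12 cycles of SMART-Seq amplification and 8 of library PCR. Per the labels and the submitters' processing notes, the authors used bcl2fastq 2.2, STAR 2.6.1d on mm10 and Partek E/M quantification with Ensembl release 95. They deposited 1 table of TPM with 0.0001 added, and 0 of its columns lacked a sample. The labels and the paper's methods start dox at 4 weeks, and 1 sentence of its results gives a later age. Its methods give 1 tumor of 1 mouse for each replicate, whereas the labels pool tumors in YAP, and the labels were followed. The labels name no batch, and p-values measure the spread between these samples.

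The deposited TPM are divided by the genomic span of each gene, introns included. With spans from GENCODE M21, the neighbouring release, 71.6 to 75.9% of low values (under 200 reads) lay within 0.05 of whole reads, 1 read being a step fitted in each library. Scaled reads are (value - 0.0001) × span / common step, for the 34645 genes at one locus. The common step is the geometric mean of the fitted steps, which keeps the authors' scaling between libraries. Exonic TPM use exonic lengths of the same annotation. Duplicates carry no molecular identifier, and overlapping genes can share reads. Cyr61 and Ctgf had no match by symbol and were not tested.

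The genotypes were compared with limma 3.58.1 under R 4.3.3 (lmFit, eBayes with trend, two-sided) on log2(scaled reads + 1), which understates the change of low genes, for genes above the offset in at least 3 libraries with a mean of at least 10 scaled reads. P-values were adjusted by Benjamini-Hochberg over all genes tested (threshold 0.05). The fit was tested on simulated data. Values in every library are given for chains with an unadjusted p under 0.05 or groups apart, for Lama3, Lamb3 and the chains of laminin-511, and for Itgb1, Itga3, Itga6, Itgb4, Itga2, Itgav, Itgb6 and Itga5. Of the members, 1 is not reported here, although it is in the counts and medians. Other chains are given by range, and Itgb2, Itgb3, Itga4, Itga11, Itgb7, Itgax, Itgal and Col4a6 were added after their values were seen. Members, gene lists and alternatives were chosen with earlier results of these data known.

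Marker lists were read beside the chains. At an unadjusted p under 0.05, 1 of 8 thyroid (Hhex, higher), 1 of 5 epithelial (Epcam, higher), 0 of 6 endothelial, 3 of 8 fibroblast (Dcn and Lum higher, Col1a1 lower), 0 of 2 platelet, 2 of 2 muscle and 1 of 1 Schwann cell markers tested (lower) were called. Alternatives were other pseudocounts, filters, length divisions, scalings and variance models, a replicate block, and each library left out in turn. List values without BrafYAP replicate 6 come from that last fit and were added after the data were seen.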

Additional observations from a re-analysis of the deposited data

How the results depend on the processing

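Of the chains at an unadjusted p under 0.05, Itgb6 was called in every alternative run, whereas Lamc1 was not called under the replicate block (log2 difference -0.80, limma unadjusted p = 0.0930) or without any 1 YAP library. The count of chains past the adjusted threshold (0) was 8 of 30 with array weights, where 4653 of 16782 genes passed. Array weights were 2.69, 1.65 and 0.223 for BrafYAP replicates 1, 2 and 6. For YAP replicates 1, 2 and 3 they were 0.393, 0.532 and 4.83, so the YAP side of this setting rests mostly on replicate 3. With 1 library left out the count was 0 to 1, the 1 being without BrafYAP replicate 6, where 140 of 16575 genes passed. The count at an unadjusted p under 0.05 (2) was 1 of 13 on log2(value + 1) of the deposited values, against 19.88% of all genes. It was 4 of 30 with median-ratio size factors (20.16% of all genes) and 5 of 30 with quantile normalization (21.06%). With array weights it was 14 of 30, where the share of all genes was also higher, at 41.18%. With the replicate block it was 10 of 30, against 16.03% of all genes. With 1 library left out it was 1 to 10, and the share of all genes ranged from 13.66% to 22.85%. The count without overlap (4) was 2 of those 13 chains on log2(value + 1) of the deposited values. With 1 library left out it was 4 to 15, the highest without BrafYAP replicate 6. The share of all genes without overlap was taken with all 6 libraries only (28.8%), and a smaller group overlaps less readily. The replicate numbers do not pair the samples: only numbers 1 and 2 are shared, and deviations of same-numbered libraries correlated at -0.0302 and 0.0452. In the replicate block, YAP replicate 3 and BrafYAP replicate 6 each stand alone in a block. Differences in that setting thus rest on replicates 1 and 2 of each genotype, so it also leaves BrafYAP replicate 6 out. Directions turned only for chains with an unadjusted p of 0.05 or more. With array weights the log2 differences became 0.94 for Itga11, 0.0704 for Itgb2, 0.74 for Itgb5, -0.0939 for Itgb7, 0.51 for Lama4 and 0.0704 for Lamb1. With the replicate block they became 0.79 for Itga11, -1.18 for Itga9, 0.73 for Itgb5, -0.49 for Itgb7, 0.27 for Lama3, 0.73 for Lama5, 0.79 for Lamb1 and 0.0255 for Lamc3. Itgb5 also turned on log2(value + 1) (0.10), per exonic length (0.0333) and with median-ratio size factors (0.11). With 1 library left out, the differences ranged from -1.09 to 0.43 for Itga1, -1.70 to 0.99 for Itga11, -0.62 to 0.34 for Itga2, -0.0503 to 0.81 for Itga3, -0.29 to 1.08 for Itga5, -0.49 to 1.34 for Itga9, -0.32 to 2.11 for Itgb3, -0.21 to 2.09 for Itgb4, -0.54 to 0.81 for Itgb5, -0.35 to 1.48 for Itgb7, -0.92 to 0.15 for Lama4, -0.64 to 0.43 for Lama5 and -1.50 to 0.61 for Lamb1. The cause of these turns was not tested. With 3 libraries a side, chains under about 30 scaled reads (Itga8, Itga9, Itga10 and Lamc3) have little precision.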
